A study of Mus musculus with 9 samples.

Results

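Prostaglandins and leukotrienes are signalling lipids made from arachidonic acid, and the 10 genes described here encode enzymes and receptors of both branches: Ptgs1, Ptgs2, Ptges, Ptgis, Ptgds, Ptger4, Hpgd, Alox5, Alox5ap and Ltb4r1. They were chosen by symbol, through the Ensembl identifiers of the GENCODE M21 annotation (mouse build GRCm38), and all 10 were found among the 38293 genes of the count table. The samples were left ventricle from 8-week-old male C57BL/6 mice, and each of the 9 libraries was labelled as coming from a different mouse. Mice 1, 2 and 3 had a sham operation, mice 4, 5 and 6 were sampled 1 day after ischemia-reperfusion (I/R), and 3 mice were sampled 14 days after it. In I/R the left anterior descending coronary artery was tied for 1 hour and then released. No allele, transgene or drug is named for any group. The tissue label reads infarcted region in all 9 libraries, sham included, and the time from sham surgery to sampling is not given in the labels. The 3 columns of the 14-day group carry the same mouse name in the table header, and they are referred to below as libraries A, B and C, letters that carry no order.

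The pathway starts when a phospholipase A2 releases arachidonic acid from membranes. Cyclooxygenases (Ptgs1, made constantly in many cells, and Ptgs2, the inducible form) turn it into prostaglandin H2, which terminal synthases convert into prostaglandin E2, prostacyclin, prostaglandin D2 or thromboxane, while 5-lipoxygenase (Alox5) and its helper protein (Alox5ap) start the leukotrienes. In injured heart these lipids are known as signals of leukocyte recruitment, vessel tone and fibroblast behaviour.

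Each library held between 20215781 and 36816818 counts, and mitochondrially encoded genes took 52.0 to 71.8% of them, which left 5706225 to 14501223 counts outside mitochondrial and ribosomal RNA genes. Levels are given as CPM, read counts relative to library sizes that were scaled by the trimmed mean of M-values (TMM), and 14124 genes passed the filter on low counts and were tested with edgeR's quasi-likelihood test with Benjamini-Hochberg adjustment. A gene is said to have risen or fallen where the adjusted p was under 0.05. These are whole-tissue libraries, so fewer cells of a type and less RNA per cell cannot be told apart. Markers of the cell types in the tissue differed between the groups as well. The 7 cardiomyocyte markers summed to 17500 to 19600 CPM in sham, 6070 to 11600 CPM at 1 day and 12400 to 17100 CPM at 14 days, and their presence fits the tissue label.

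At 1 day, the inducible cyclooxygenase Ptgs2, the leukotriene helper Alox5ap, the prostacyclin synthase Ptgis and the prostaglandin E2 receptor Ptger4 were above sham, and the prostaglandin-degrading enzyme Hpgd and the lipoxygenase Alox5 were below it. Of the 9 members tested, 4 rose and 2 fell, against 29.4% of all tested genes that rose and 24.8% that fell (54.2% in either direction). The share of members called, 6 of 9, was thus near the background of this comparison. The members' median log2 fold change was 0.26 and that of all genes 0.04. At 14 days against sham, 5 members rose (Ptgs2, Ptges, Ptgis, Hpgd and Alox5ap) and 1 fell (Alox5), where 8.75% of all genes rose and 5.64% fell (14.4% in either direction). Here 6 of the 9 were called in a comparison where few genes were, but this count was not stable, as given below. The members were also chosen with earlier results of these data known, so this share is no evidence about the pathway. The members' median log2 fold change was 0.94, beside 0.01 for all genes. Between the time points, 2 members were higher at 14 days than at 1 day (Ptges and Hpgd) and 3 were lower (Ptgs2, Ptger4 and Alox5ap), with 25.1% of all genes higher and 26.8% lower (51.9% in either direction), so that 5 of 9 was again near the background. The members' median was 0.11 and that of all genes 0.0047. The comparisons of the 2 time points with sham share the 3 sham libraries. Ltb4r1 was the 1 member that did not pass the filter and is described by its counts. Scaling moved the balance of calls: with total counts as the only scaling, 6860 genes rose and 1057 fell at 1 day (4153 and 3496 with TMM), 720 rose and 112 fell at 14 days (1236 and 797), and 1066 were higher and 5469 lower at 14 days than at 1 day (3547 and 3788).

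**Figure D1:**
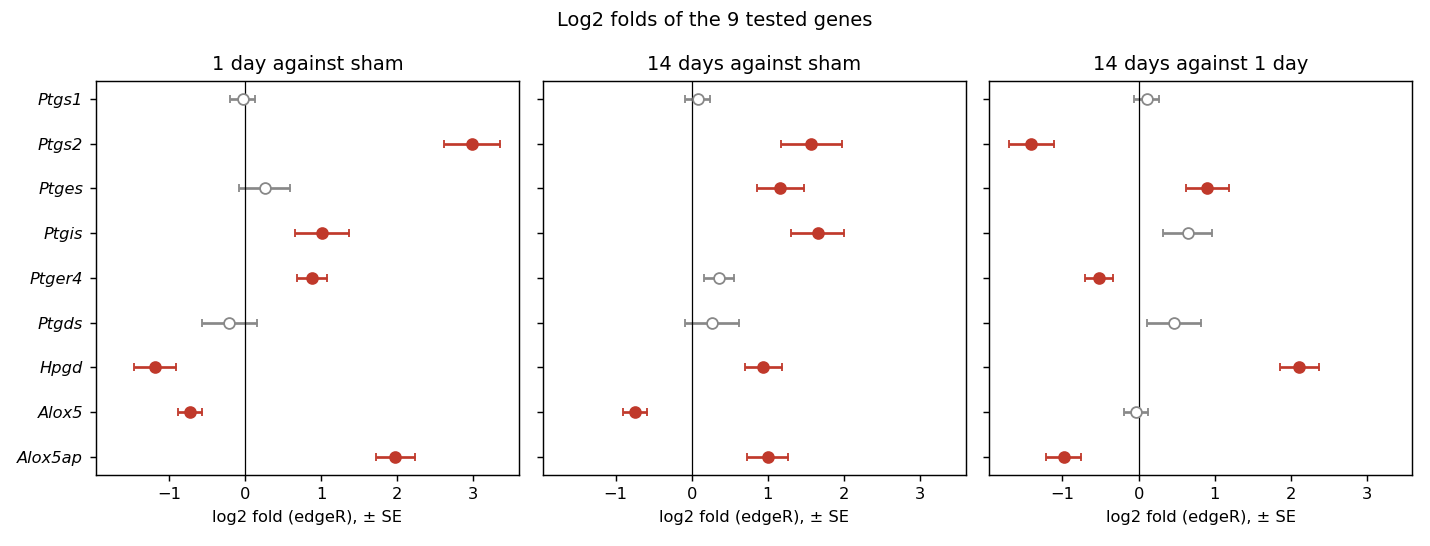
Log2 fold change of the 9 tested members in the 3 comparisons, with the standard error of each estimate as a bar; filled points passed the adjusted p of 0.05. Ptgs2 had the largest change against sham at 1 day (2.98), and Hpgd lay below 0 at 1 day (-1.18) and above it at 14 days (0.94).

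The count of members above sham at 14 days rested on single libraries. It was 5 with all libraries, 1 without sham mouse 1, 0 without sham mouse 2 (6 at an unadjusted p under 0.05), 1 without sham mouse 3, 2 without library B and 1 without library C by edgeR, while the log2 fold changes of these 5 members stayed above 0 in each case. With all libraries DESeq2 gave 5 and limma-voom 3. The number of all tested genes that rose moved likewise, from 1236 to 614, 314, 619, 515 and 498 in the same order.

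Both cyclooxygenase genes lie apart in the genome, Ptgs1 on chr2:36230426-36252272 and Ptgs2 on chr1:150100031-150108227, both on the plus strand. Ptgs1 stood at 4.44, 4.72 and 4.54 CPM in sham mice 1, 2 and 3, at 5.66, 3.97 and 3.58 CPM in mice 4, 5 and 6 at 1 day, and at 4.71, 4.78 and 4.99 CPM in libraries A, B and C. The 3 groups overlapped, and the 1-day libraries were spread wider (coefficient of variation 25.0%) than sham (3.11%) or 14 days (3.01%). Its log2 fold change was -0.03 at 1 day (SE 0.17, adjusted p = 0.893), 0.08 at 14 days (SE 0.17, adjusted p = 0.788) and 0.11 between the time points (SE 0.16, adjusted p = 0.601). Without mouse 4, the highest library, the last of these was 0.36 with an adjusted p of 0.0495.

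Ptgs2, the inducible enzyme, was at 0.461, 0.337 and 0.575 CPM in the sham mice (9 to 11 counts each), at 3.21, 4.13 and 3.18 CPM at 1 day (71 to 142 counts) and at 0.900, 0.967 and 2.17 CPM at 14 days (26 to 53 counts). No 2 of the 3 groups overlapped, and library C stood above the other 14-day libraries. Ptgs2 rose 7.91-fold at 1 day (log2 fold change 2.98, SE 0.36, adjusted p = 9.47e-05). It was 2.97-fold above sham at 14 days (log2 1.57, SE 0.40, adjusted p = 0.0235), and it fell by 1.41 on the log2 scale from 1 day to 14 days (SE 0.30, adjusted p = 0.00230). The 1-day rise and the difference between time points held in all 9 alternative settings and with each of the 9 libraries left out. The 14-day rise over sham did not pass the threshold with limma-voom, without any 1 of the sham mice, or without library C.

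A ratio of counts per kilobase within 1 library needs no scaling between libraries. The ratio of Ptgs2 to Ptgs1 was 0.0880, 0.0606 and 0.107 in sham, 0.482, 0.882 and 0.753 at 1 day, and 0.162, 0.172 and 0.368 at 14 days. The mean ratio was 0.0854 ± 0.0236 (SD, n = 3) in sham, 0.705 ± 0.204 at 1 day and 0.234 ± 0.116 at 14 days. Thus the constitutive gene had the higher level per kilobase in every library, and the 3 groups did not overlap; no test was made of the ratios.

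**Figure D2:**
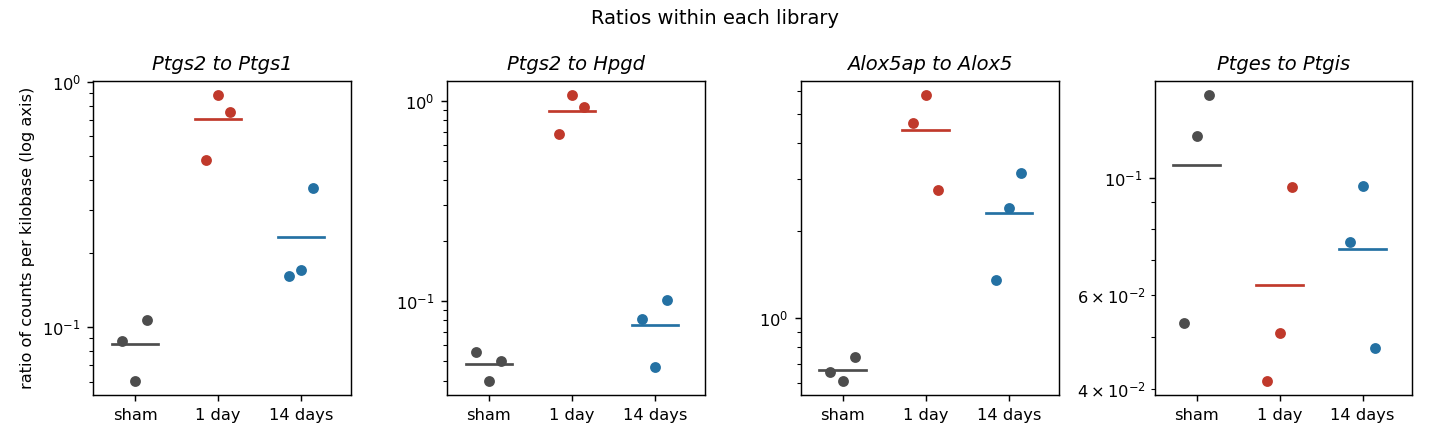
Within-library ratios of counts per kilobase for 4 pairs of members, on log axes, with 1 point per library and a bar at the mean of each group. The ratio of Ptgs2 to Ptgs1 lies at 0.0606 to 0.107 in sham and at 0.482 to 0.882 at 1 day; that of Ptges to Ptgis overlaps in all 3 groups.

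Promoter sequences are shown for the 2 cyclooxygenases, which differ in their change at 1 day, and for Hpgd and Ptger4, which moved in opposite directions. RefSeq promoters (build GRCm38.p6, 250 bases before to 50 bases after the RefSeq start) were matched for 8 of the 10 members, and Ptgis and Alox5ap had no entry. Capitals mark matches to any of 7 motifs searched on both strands: the TATA box (TATAAA), the cyclic AMP element (TGACGTCA), the AP-1 site (TGANTCA), the E-box (CACGTG), the GC box (GGGCGG), the CCAAT box and a short C/EBP-like pattern (TTNNNCAA).
Ptgs2, chr1:150099781-150100080 (plus strand): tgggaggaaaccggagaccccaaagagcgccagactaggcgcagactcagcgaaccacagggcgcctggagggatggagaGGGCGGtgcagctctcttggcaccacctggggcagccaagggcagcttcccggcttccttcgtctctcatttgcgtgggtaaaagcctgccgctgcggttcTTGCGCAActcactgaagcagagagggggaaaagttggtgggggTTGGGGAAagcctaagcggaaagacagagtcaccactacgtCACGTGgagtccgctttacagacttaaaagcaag
Ptgs1, chr2:36230176-36230475 (plus strand): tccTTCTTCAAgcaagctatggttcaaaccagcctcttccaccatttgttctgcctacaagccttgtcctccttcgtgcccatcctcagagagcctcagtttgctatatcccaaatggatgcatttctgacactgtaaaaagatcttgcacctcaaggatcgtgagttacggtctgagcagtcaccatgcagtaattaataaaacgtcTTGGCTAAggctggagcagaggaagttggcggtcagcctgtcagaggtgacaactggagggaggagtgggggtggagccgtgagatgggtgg
Hpgd, chr8:56294302-56294601 (plus strand): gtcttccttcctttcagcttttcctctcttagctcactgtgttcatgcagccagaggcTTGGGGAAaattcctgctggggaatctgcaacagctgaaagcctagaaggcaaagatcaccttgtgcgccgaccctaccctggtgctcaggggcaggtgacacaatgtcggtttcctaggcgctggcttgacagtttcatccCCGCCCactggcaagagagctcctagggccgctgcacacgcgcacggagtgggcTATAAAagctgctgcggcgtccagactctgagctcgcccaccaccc
Ptger4, chr15:5244138-5244437 (minus strand): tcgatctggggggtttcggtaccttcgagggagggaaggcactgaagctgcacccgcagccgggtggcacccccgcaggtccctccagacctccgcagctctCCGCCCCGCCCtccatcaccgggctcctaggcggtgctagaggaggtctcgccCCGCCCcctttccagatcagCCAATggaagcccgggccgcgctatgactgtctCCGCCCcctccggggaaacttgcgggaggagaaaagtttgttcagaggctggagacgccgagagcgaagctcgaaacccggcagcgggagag
The Ptgs2 window held 2 matches to the C/EBP-like pattern, 1 to the GC box and 1 to the E-box, the last at position 17 after the start. In the Ptgs1 window only the C/EBP-like pattern matched, 2 times. Hpgd had 1 match each to the TATA box, the GC box and the C/EBP-like pattern, and Ptger4 had 4 to the GC box and 1 to the CCAAT box. The TATA box match of Hpgd lay at position 5 after the RefSeq start, not before it. Among all 32851 promoters in the table, 36.7% held the C/EBP-like pattern, 35.7% the GC box, 37.4% the CCAAT box, 13.6% the TATA box, 7.81% the AP-1 site, 7.15% the E-box and 1.79% the cyclic AMP element. The GC content was 59.3% for Ptgs2, 50.7% for Ptgs1, 58.0% for Hpgd and 67.0% for Ptger4, beside a median of 52.7% over all promoters. A match is a description of the letters and does not show that a factor binds.

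The terminal synthases Ptges, Ptgis and Ptgds make prostaglandin E2, prostacyclin and prostaglandin D2 from prostaglandin H2, and all lie on chromosome 2. Ptges (chr2:30889471-30929863, minus strand), the membrane-bound E synthase, was at 0.335, 0.472 and 0.575 CPM in sham, 0.498, 0.477 and 0.672 CPM at 1 day and 0.762, 1.17 and 1.10 CPM at 14 days. Sham and 1 day overlapped, and every 14-day library was above both. Its log2 fold change at 1 day was 0.26 (SE 0.33, adjusted p = 0.530). Ptges rose at 14 days against sham by 1.16 on the log2 scale (SE 0.31, adjusted p = 0.0278) and against 1 day by 0.90 (SE 0.28, adjusted p = 0.0197). These values rest on 8 to 40 counts per library; the call against sham was lost without any 1 of the sham mice, library B or library C, and that against 1 day with total counts as the only scaling or without mouse 4, mouse 5 or library B.

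Ptgis (chr2:167191805-167240604, minus strand), the prostacyclin synthase, was at 4.10, 2.56 and 2.62 CPM in sham, 7.85, 6.12 and 4.57 CPM at 1 day and 6.58, 7.92 and 15.1 CPM at 14 days. All 6 libraries after I/R were above the sham range, the 1-day and 14-day groups overlapped, and library C was the highest. Ptgis rose 2.01-fold at 1 day (log2 1.01, SE 0.35, adjusted p = 0.0340) and 3.15-fold at 14 days (log2 1.65, SE 0.35, adjusted p = 0.0146). From 1 day to 14 days the log2 difference was 0.64 (SE 0.32, adjusted p = 0.115). The 1-day rise was lost with no filter on low counts (log2 1.03, adjusted p = 0.129) and when sham mouse 2 or 3 or mouse 4 or 5 was left out, and the 14-day rise with no filter and without sham mouse 2 or sham mouse 3. The ratio of Ptges to Ptgis per kilobase was 0.106 ± 0.0468 in sham, 0.0628 ± 0.0292 at 1 day and 0.0734 ± 0.0246 at 14 days, with the groups overlapping.

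Ptgds (chr2:25466709-25470046, minus strand), the lipocalin-type D synthase, was the most abundant member by level per kilobase in all 3 groups. Its 9 values were 89.1, 57.5 and 51.8 CPM in sham, 38.9, 39.5 and 94.5 CPM at 1 day and 97.0, 73.1 and 68.4 CPM at 14 days. The groups overlapped, and mouse 6 stood far above mice 4 and 5. No comparison passed the threshold: the log2 fold change was -0.20 at 1 day (SE 0.36, adjusted p = 0.652), 0.27 at 14 days (SE 0.36, adjusted p = 0.661) and 0.47 between the time points (SE 0.36, adjusted p = 0.296). The single library of mouse 6 decided this result at 1 day, since without it Ptgds was lower than in sham (log2 -0.76, adjusted p = 0.0321) and higher at 14 days than at 1 day (log2 1.02, adjusted p = 0.00947). Mouse 6 also had the highest summed cardiomyocyte markers of its group (11600 CPM against 7630 and 6070) and the lowest summed neutrophil markers (16.3 CPM against 49.2 and 54.3). The part of either in the Ptgds value was not tested.

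**Figure D3:**
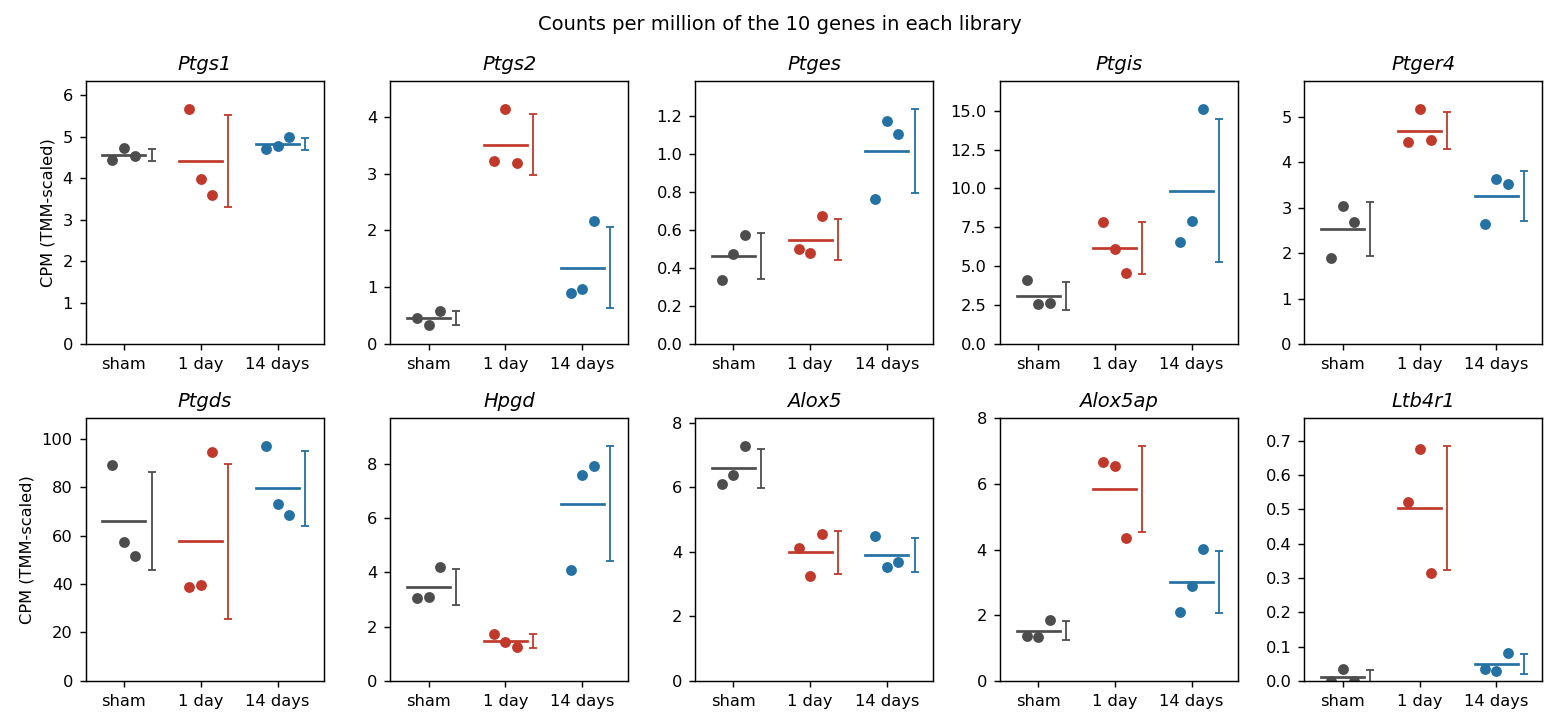
TMM-scaled CPM of the 10 members in each of the 9 libraries, 1 panel per gene, each axis starting at 0, with the group mean and SD. Ptgs2 is at 3.18 to 4.13 CPM at 1 day and at most 0.575 CPM in sham, and 1 of the 3 Ptgds values at 1 day (94.5 CPM) stands apart from the other two.

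Ptger4 (chr15:5206661-5244187, minus strand) encodes the EP4 receptor of prostaglandin E2, which signals through cyclic AMP. It was at 1.88, 3.03 and 2.68 CPM in sham, 4.44, 5.16 and 4.48 CPM at 1 day and 2.63, 3.63 and 3.52 CPM at 14 days. The 1-day libraries were above both other groups, which overlapped each other. Ptger4 rose 1.84-fold at 1 day (log2 0.88, SE 0.19, adjusted p = 0.00265), in all 9 settings and with each library left out. From 1 day to 14 days it fell by 0.52 on the log2 scale (SE 0.18, adjusted p = 0.0325), a call that was lost without mouse 4, mouse 5 or library A. At 14 days its log2 fold change against sham was 0.36 (SE 0.20, adjusted p = 0.245).

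Hpgd (chr8:56294585-56321043, plus strand) encodes 15-hydroxyprostaglandin dehydrogenase, the first enzyme of prostaglandin E2 breakdown. Its level was 3.06, 3.10 and 4.22 CPM in sham, 1.74, 1.43 and 1.25 CPM at 1 day and 4.09, 7.59 and 7.93 CPM at 14 days. Every 1-day library was below every other library, and library A at 14 days lay within the sham range. Hpgd fell at 1 day by 1.18 on the log2 scale (2.26-fold lower, SE 0.28, adjusted p = 0.00415), and was 4.33-fold higher at 14 days than at 1 day (log2 2.11, SE 0.26, adjusted p = 1.14e-04). It rose 1.92-fold at 14 days against sham (log2 0.94, SE 0.24, adjusted p = 0.0275), although these groups overlapped, and that call was lost without sham mouse 1, sham mouse 2, library B or library C. With total counts as the only scaling, the 1-day value was -0.67 with an adjusted p of 0.0677.

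The ratio of Ptgs2, which starts prostaglandin synthesis, to Hpgd, which ends prostaglandin action, was 0.0485 ± 0.00784 per kilobase in sham (SD, n = 3), 0.890 ± 0.195 at 1 day and 0.0761 ± 0.0271 at 14 days. The 1-day libraries ran from 0.678 to 1.06 and the other 6 from 0.0399 to 0.10, so they did not overlap. Sham and 14 days overlapped.

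In the leukotriene branch the enzyme and its helper moved apart. Alox5 (chr6:116410077-116461178, minus strand), 5-lipoxygenase, was at 6.11, 6.37 and 7.29 CPM in sham, 4.12, 3.26 and 4.57 CPM at 1 day and 4.50, 3.52 and 3.68 CPM at 14 days. All 6 libraries after I/R were below the sham range, and the 2 time points overlapped. Alox5 fell by 0.72 on the log2 scale at 1 day (SE 0.16, adjusted p = 0.00246) and by 0.75 at 14 days (SE 0.16, adjusted p = 0.0113), and the difference between the time points was -0.03 (SE 0.16, adjusted p = 0.883). Scaling mattered here: with total counts as the only scaling the 1-day value was -0.23 with an adjusted p of 0.385, and the 14-day call was lost too. The 14-day call was also lost without sham mouse 2 or library B.

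Alox5ap (chr5:149264767-149288153, plus strand) encodes the 5-lipoxygenase activating protein, which presents arachidonic acid to Alox5. It was at 1.38, 1.35 and 1.85 CPM in sham, 6.65, 6.55 and 4.35 CPM at 1 day and 2.11, 2.90 and 4.01 CPM at 14 days. The groups followed each other without overlap, 1 day highest and sham lowest. Alox5ap rose 3.94-fold at 1 day (log2 1.98, SE 0.26, adjusted p = 1.43e-04) and 1.99-fold at 14 days against sham (log2 1.00, SE 0.27, adjusted p = 0.0309). Between the time points it fell by 0.98 on the log2 scale (SE 0.23, adjusted p = 0.00447). The 1-day rise and the later fall held in all 9 settings and with each library left out, and the 14-day rise was lost with limma-voom and without any 1 of the sham mice, library B or library C. Within libraries, the ratio of Alox5ap to Alox5 per kilobase was 0.667 ± 0.0629 in sham, 4.41 ± 1.55 at 1 day and 2.30 ± 0.899 at 14 days. It was at most 0.736 in every sham library and at least 1.36 in every library after I/R, so the order of the 2 genes by level per kilobase turned.

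Ltb4r1 (chr14:55765962-55768494, plus strand), the high-affinity leukotriene B4 receptor BLT1 of neutrophils and other leukocytes, had 0, 1 and 0 counts in sham, 23, 17 and 7 at 1 day and 1, 1 and 2 at 14 days. The 1-day libraries were at 0.520, 0.675 and 0.314 CPM, the sham library with a count at 0.0337 CPM and the 14-day libraries at 0.0293 to 0.0818 CPM. Summed over a group, 47 counts at 1 day against 1 in sham gave a depth-adjusted ratio of 35.5 with a 95% exact interval of 6.06 to 1431, and 4 counts at 14 days against 47 gave 0.0892 (0.0234 to 0.244). For 14 days against sham the ratio was 3.17 (0.313 to 156), which includes 1. These intervals cover counting error only. With no filter on low counts, edgeR gave a log2 fold change of 4.78 at 1 day (adjusted p = 1.67e-05), 1.42 at 14 days (adjusted p = 0.630) and -3.36 between the time points (adjusted p = 6.55e-05).

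Neutrophil markers were also high at 1 day. The 9 neutrophil markers summed to 1.26 to 4.28 CPM in sham, 49.2, 54.3 and 16.3 CPM in mice 4, 5 and 6 and 1.63 to 2.94 CPM at 14 days. Of the 9, 5 passed the filter on low counts, and all 5 rose at 1 day (29.4% of all tested genes rose). With sums this low in sham and at 14 days, markers could pass the filter mainly through the 1-day libraries. This count is therefore no evidence beyond the sums. Ly6g was at 0 in every library and Camp at 0 at 1 day. Mouse 6 had the lowest sum of these markers at 1 day, and 6 members were at the lowest value of the group there: Ltb4r1 (0.314 CPM), Alox5ap (4.35 CPM), Ptgis (4.57 CPM), Ptgs1 (3.58 CPM), Hpgd (1.25 CPM) and Ptgs2. Ptges (0.672 CPM), Ptgds (94.5 CPM) and Alox5 (4.57 CPM) were highest in mouse 6, and Ptger4 (4.48 CPM) lay between mice 4 and 5. Ptgs2 was at 3.18, 3.21 and 4.13 CPM in mice 6, 4 and 5, whose marker sums were 16.3, 49.2 and 54.3 CPM. Without mouse 6 Ltb4r1 passed the filter on low counts, and its log2 fold change at 1 day was 4.96 (edgeR). It passed there through mice 4 and 5, the libraries where it was high, so no p-value is given. Without mouse 4 or without mouse 5 it did not pass. The 10 monocyte and macrophage markers summed to 147 to 166 CPM in sham, 300, 319 and 283 CPM in mice 4, 5 and 6, and 223, 356 and 425 CPM in libraries A, B and C. At each time 7 of 10 rose against sham, beside 29.4% of all tested genes at 1 day and 8.75% at 14 days. The part of these cells in the members' values was not tested.

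Fibroblast markers moved at 14 days, when Ptgs2, Ptges, Ptgis, Hpgd and Alox5ap were above sham. Of these members, Ptgs2, Ptgis and Alox5ap were above sham at 1 day too. The 7 fibroblast markers summed to 396 to 561 CPM in sham, 404 to 501 CPM at 1 day, and 972, 1390 and 2100 CPM in libraries A, B and C. At 1 day 1 of the 7 rose and 3 fell (29.4% and 24.8% of all tested genes). At 14 days 6 of 7 rose against sham (8.75% of all tested genes). Library A had the lowest sum of its group and library C the highest, for these markers as for those of monocytes and macrophages. Cardiomyocyte markers ran the other way, at 17100, 13800 and 12400 CPM in libraries A, B and C. So did smooth muscle markers, at 90.4, 76.3 and 70.2 CPM. Of the members, Ptgis, Ptges, Hpgd, Ptgs2, Alox5ap, Ptger4 and Ptgs1 were lowest in library A, Ptgds and Alox5 were highest there, and Ltb4r1 was lowest in library B. Endothelial markers (7 genes) summed to 468 to 500 CPM in sham, 351 to 382 CPM at 1 day and 403 to 481 CPM at 14 days, and smooth muscle markers (6 genes) to 100 to 115, 72.5 to 86.3 and 70.2 to 90.4 CPM. The sums for 8 mast cell markers were 2.81 to 4.69, 4.41 to 5.04 and 5.54 to 7.30 CPM in sham, at 1 day and at 14 days, with Tpsab1 and Ms4a2 at 0 in sham. Platelet markers (7 genes) summed to 5.69 to 11.6, 9.63 to 13.5 and 4.57 to 9.32 CPM, T and B cell markers (7 genes) to 0.831 to 1.21, 0.448 to 1.27 and 1.07 to 2.78 CPM, and 6 epicardial and mesothelial markers to 5.70 to 9.67, 1.63 to 11.4 and 4.19 to 5.40 CPM. How much any of these lists contributed to the members' values was not tested.

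**Figure D4:**
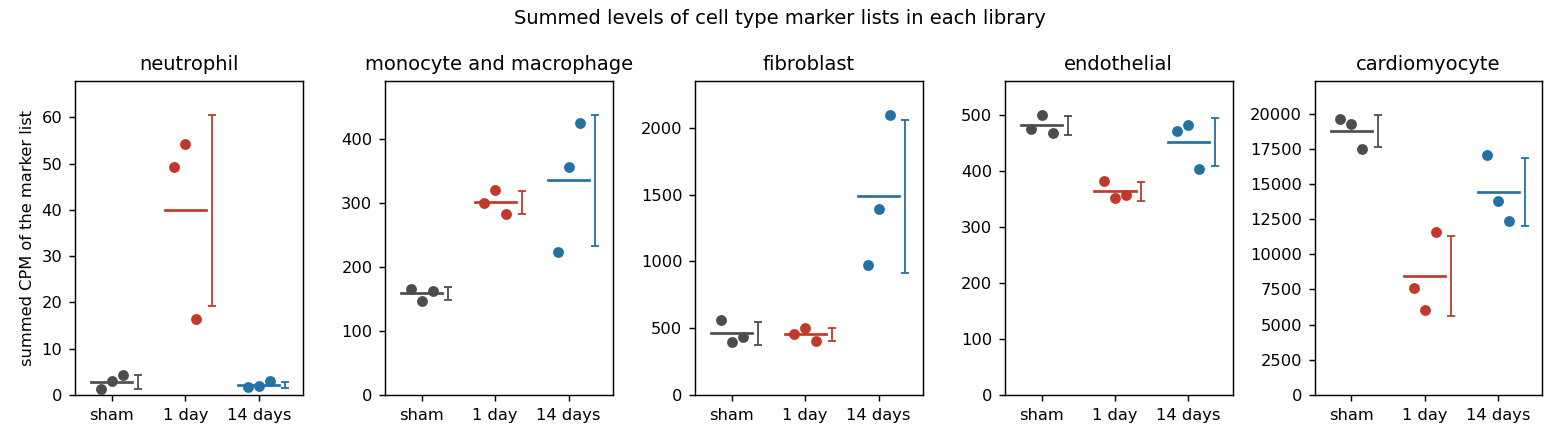
Summed TMM-scaled CPM of the marker genes of 5 cell types in each library, with the group mean and SD. Neutrophil markers reach 16.3 to 54.3 CPM at 1 day against at most 4.28 CPM in sham, and fibroblast markers reach 972 to 2100 CPM at 14 days against at most 561 CPM in sham.

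The order of the members by mean level per kilobase differed between the groups. In sham it ran from Ptgds (40.1 ± 12.2 CPM per kilobase, SD, n = 3) through Hpgd (2.06 ± 0.391), Alox5 (1.60 ± 0.15), Ptgis (1.21 ± 0.340), Ptgs1 (1.18 ± 0.0365) and Alox5ap (1.08 ± 0.199) to Ptger4 (0.381 ± 0.0886), Ptges (0.117 ± 0.0306), Ptgs2 (0.0999 ± 0.0260) and Ltb4r1 (0.00806 ± 0.0140). Ptgis, Ptgs1 and Alox5ap were neighbours within their spread, and so were Ptges and Ptgs2. At 1 day Ptgds (35.0 ± 19.3) was followed by Alox5ap (4.12 ± 0.918) and Ptgis (2.41 ± 0.640). Below them Ptgs1, Alox5, Hpgd, Ptgs2 and Ptger4 lay close together, from 1.13 to 0.706 CPM per kilobase, and Ltb4r1 (0.361 ± 0.130) stood above Ptges (0.140 ± 0.0273). At 14 days Hpgd (3.88 ± 1.27) and Ptgis (3.84 ± 1.78) came after Ptgds (48.2 ± 9.31) and did not differ beyond their spread, and Ptgs2 (0.294 ± 0.156) was again near Ptges (0.258 ± 0.0560).

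Exons of 4 members share bases with a gene on the opposite strand, and whether the counting used strand is not given in the sources used here. The shared part is 3.81% of the exonic bases of Ptgs1 (with Gm43621), 6.08% of Ptgis (with 1110018N20Rik), 13.31% of Alox5ap (with Gm19719) and 16.5% of Ptger4 (with Ttc33 and Gm15937). The partners that have counts were at lower mean levels at 1 day than in sham: the means in sham, at 1 day and at 14 days were 1.63, 1.06 and 1.5 CPM for 1110018N20Rik, 9.80, 6.81 and 10.2 CPM for Ttc33, and 0.415, 0.278 and 0.493 CPM for Gm15937. The other 6 members share no exonic base with another gene.

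For 4 members, the genes with the most similar pattern over the 9 libraries were sought among 11406 genes, as Pearson's r of log2(CPM + 0.1). These are descriptions over libraries that share group, depth and cell makeup. The value of r does not depend on the size of a change. For Ptgs2 the most similar genes were Seh1l (r = 0.989), Alcam (r = 0.989) and S100a4 (r = 0.989). In sham, at 1 day and at 14 days Seh1l averaged 12.31, 15.95 and 13.63 CPM. Alcam averaged 1.86, 7.16 and 3.87 CPM and S100a4 1.77, 10.6 and 4.07 CPM. For Alox5ap the most similar genes were Tradd (r = 0.996), Lgals1 (r = 0.994) and Fxyd5 (r = 0.993). Ptgis was most like Rcn3 (r = 0.990), Scarna13 (r = 0.988) and Sumf1 (r = 0.984). Hpgd was most like Tcf21 (r = 0.989), Mfap1b (r = 0.984) and Lmo2 (r = 0.984); Tcf21 is 1 of the 7 fibroblast markers, and Mfap1b has a near-identical copy, Mfap1a, so its counts are uncertain.

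Other genes of the pathway were taken from a list of 53, of which 52 are in the table and 34 were tested. At 1 day 9 of the 34 rose and 14 fell, beside 29.4% and 24.8% of all tested genes. The median log2 fold change was -0.33 (all genes 0.04). At 14 days against sham 7 rose and 2 fell, beside 8.75% and 5.64% of all genes (median 0.23, all genes 0.01). Between the time points 13 were higher and 3 lower at 14 days, beside 25.1% and 26.8% of all genes (median 0.33, all genes 0.0047). The same shares of all genes apply to the counts by role below. Unlike among the members, more of these genes fell than rose at 1 day; the difference between the lists was not tested. With total counts as the only scaling, 6 fell at 1 day.

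**Figure D5:**
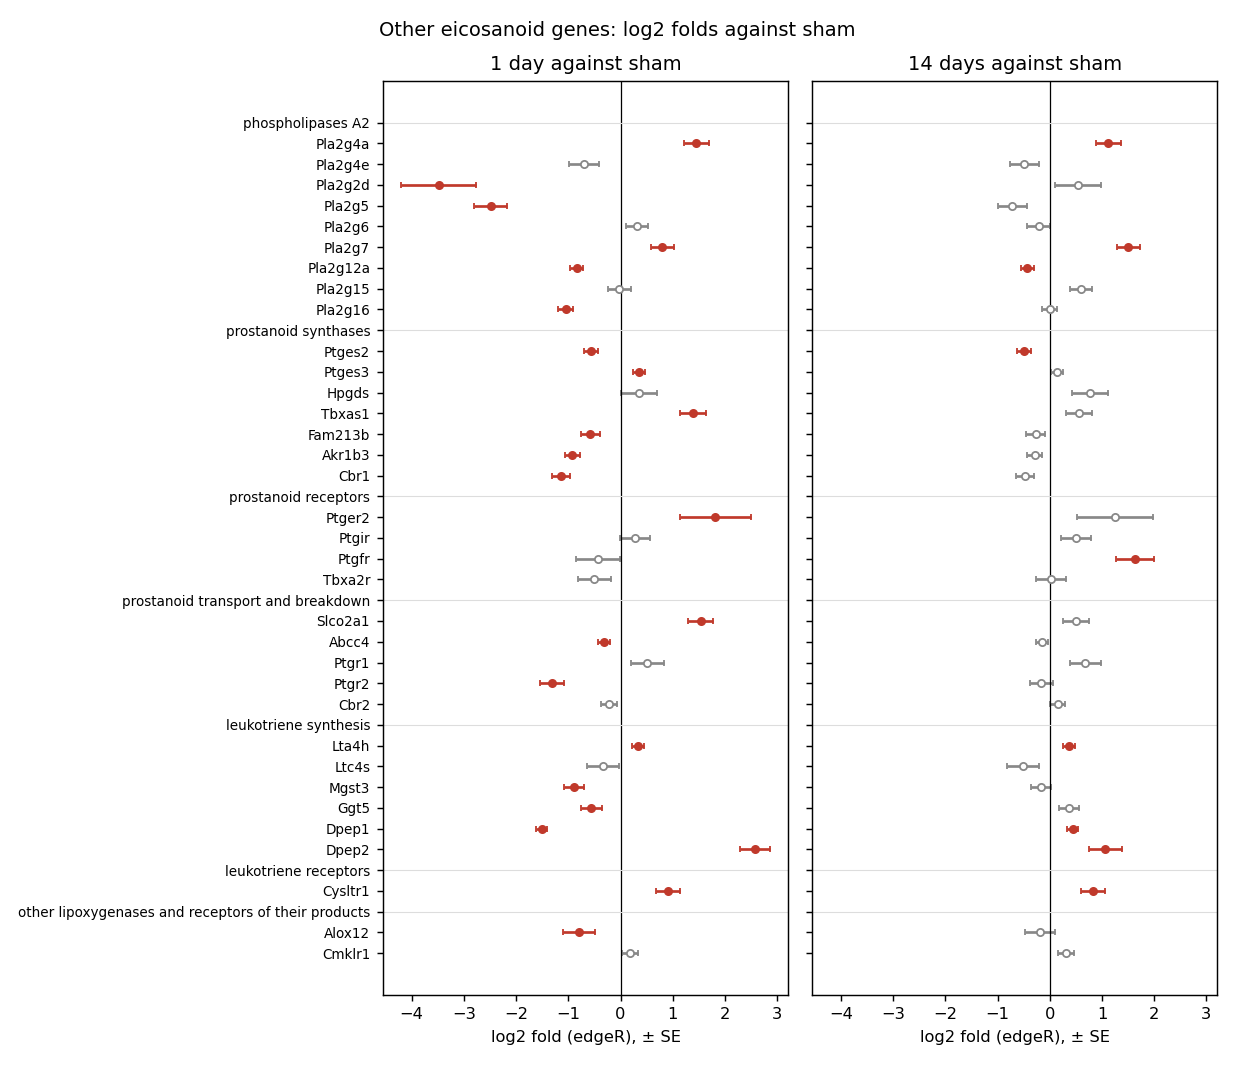
Log2 fold change of the other pathway genes that passed the filter, by role, at 1 day and 14 days against sham, with the standard error as a bar; filled points passed the adjusted p of 0.05. Dpep2 lies highest at 1 day (2.57) and Pla2g2d lowest (-3.48).

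Phospholipases A2 supply the arachidonic acid, and of 9 tested at 1 day 2 rose and 4 fell. Pla2g4a, the cytosolic enzyme that releases arachidonic acid, was at 2.68, 2.53 and 1.92 CPM in sham, 7.01, 7.31 and 5.42 CPM at 1 day and 3.60, 5.13 and 7.16 CPM at 14 days. It rose at 1 day by 1.45 on the log2 scale (SE 0.24, adjusted p = 5.84e-04) and at 14 days by 1.13 (SE 0.24, adjusted p = 0.0138), the latter not without sham mouse 2 or sham mouse 3. The secreted enzyme Pla2g5 fell from 12.9 ± 3.03 CPM in sham to 2.34 ± 0.960 CPM at 1 day (log2 -2.49, SE 0.32, adjusted p = 2.34e-04) and was higher again at 14 days than at 1 day (log2 1.77, SE 0.32, adjusted p = 0.00148). Pla2g7, the platelet-activating factor acetylhydrolase, rose at 1 day by 0.80 (adjusted p = 0.00960) and at 14 days by 1.51 (adjusted p = 0.00319), the former not without sham mouse 2 (0.62, adjusted p = 0.0570). Pla2g16 fell at 1 day by 1.05 (adjusted p = 1.85e-04) and Pla2g12a by 0.83 (adjusted p = 2.96e-04), and both were higher at 14 days than at 1 day, by 1.05 and 0.40. Pla2g12a was also below sham at 14 days (log2 -0.43, adjusted p = 0.0352), a call that was lost without any 1 of the sham mice, library B or library C. With total counts as the only scaling Pla2g12a passed the threshold in none of the comparisons (edgeR; -0.36, -0.34 and 0.02), and its later rise was lost also without mouse 4, mouse 5 or library A. Pla2g2d, a secreted enzyme singled out after its values were seen, fell at 1 day by 3.48 (SE 0.72, adjusted p = 0.00188), on 36 counts in sham and 4 at 1 day.

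All 7 other prostanoid synthases were tested, and 2 rose and 4 fell at 1 day. Tbxas1, thromboxane synthase, was at 2.43 ± 0.306 CPM in sham, 6.23 ± 1.00 CPM at 1 day and 3.55 ± 1.22 CPM at 14 days, and it rose at 1 day by 1.38 (SE 0.25, adjusted p = 8.45e-04). Ptges3, a cytosolic E synthase and Hsp90 co-chaperone, rose by 0.35 (adjusted p = 0.0217), but not with DESeq2 (adjusted p = 0.0507) or without sham mouse 1, sham mouse 3 or mouse 5. Ptges2, a further E synthase, fell by 0.56 at 1 day (adjusted p = 0.00503) and by 0.50 at 14 days (adjusted p = 0.0319), the latter not without sham mouse 1 or 2, library B or library C. Akr1b3, an aldose reductase, fell at 1 day by 0.92 (adjusted p = 4.73e-04), and Fam213b, a prostamide and prostaglandin F synthase, by 0.58 (adjusted p = 0.0182), the latter not without sham mouse 1 or 2 or mouse 5. Cbr1, a carbonyl reductase, fell at 1 day by 1.14 (adjusted p = 3.93e-04) and had a log2 fold change of -0.47 at 14 days (adjusted p = 0.0859). These 2 values of Cbr1 lie outside the naming rule, and whether the 1-day call held in the other settings is not given here. Between the time points Tbxas1 fell by 0.82 (adjusted p = 0.0115; 0.0566 without mouse 4), while Akr1b3 was higher at 14 days by 0.63 (adjusted p = 0.00430) and Cbr1 by 0.67 (adjusted p = 0.00901). With total counts as the only scaling, the falls of Ptges2 at both times, those of Akr1b3 and Fam213b at 1 day and the later rises of Akr1b3 and Cbr1 did not pass the threshold.

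Among 8 other prostanoid receptors 4 had too few counts to be tested. Ptger2, the EP2 receptor, rose at 1 day from 0.0814 ± 0.107 to 0.365 ± 0.0294 CPM (log2 1.82, SE 0.68, adjusted p = 0.0396), on 7 counts in sham and 33 at 1 day, and the call was lost when any 1 of sham mice 1 and 3, mice 4 and 5 or library B was left out. Ptgfr, the prostaglandin F receptor, was at 0.925 ± 0.0696 CPM in sham, 0.725 ± 0.385 CPM at 1 day and 2.90 ± 1.14 CPM at 14 days. Ptgfr rose at 14 days by 1.63 against sham (SE 0.36, adjusted p = 0.0145) and by 2.06 against 1 day (SE 0.36, adjusted p = 8.63e-04), the former not without any 1 of the sham mice or library C. Slco2a1, the transporter that takes up prostaglandins for breakdown, rose at 1 day by 1.54 (SE 0.24, adjusted p = 3.54e-04), while Ptgr2, a prostaglandin reductase, fell from 95.1 ± 4.82 to 38.4 ± 16.4 CPM (log2 -1.32, SE 0.23, adjusted p = 9.83e-04). From 1 day to 14 days Slco2a1 fell by 1.03 (adjusted p = 0.00253) and Ptgr2 rose by 1.16 (adjusted p = 0.00220). Abcc4, an exporter, fell by 0.31 (adjusted p = 0.0407) at 1 day, and its value turned to 0.16 with total counts as the only scaling. That call was also lost with no filter on low counts and without sham mouse 1 or 2, mouse 4, mouse 5 or library B. Ptgr2 shares 31.98% of its exonic bases with a gene on the opposite strand.

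In the leukotriene branch 6 of 8 other synthesis genes were tested, and 2 rose and 3 fell at 1 day. The 2 dipeptidases that turn leukotriene D4 into E4 moved in opposite directions at 1 day. Dpep1 was at 20.4, 21.1 and 19.8 CPM in sham, 6.54, 6.75 and 8.33 CPM at 1 day and 26.6, 29.3 and 27.3 CPM at 14 days, and it fell at 1 day by 1.51 (SE 0.10, adjusted p = 4.91e-06). Dpep2 was at 0.670, 0.404 and 0.256 CPM in sham, 2.92, 2.54 and 2.78 CPM at 1 day and 0.796, 1.20 and 0.859 CPM at 14 days, and it rose at 1 day by 2.57 (SE 0.29, adjusted p = 6.19e-05). Both were above sham at 14 days, Dpep1 by 0.44 (adjusted p = 0.0149) and Dpep2 by 1.06 (adjusted p = 0.0451), and both calls were lost with total counts as the only scaling and without sham mouse 2 or 3, library B or library C. The call of Dpep1 was lost also without sham mouse 1, and that of Dpep2 with limma-voom, with the 2 groups fitted alone and without mouse 4 or 5. From 1 day to 14 days Dpep1 rose by 1.95 (adjusted p = 1.49e-06) and Dpep2 fell by 1.51 (adjusted p = 5.07e-04). Dpep2 shares 43.96% of its exonic bases with other annotated genes, most of them with a second entry of the same name on the same strand and the rest with Gm22972, Gm45752 and Dus2, so its counts are uncertain.

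Lta4h, which makes leukotriene B4, the ligand of Ltb4r1, rose by 0.33 at 1 day (adjusted p = 0.0271) and by 0.37 at 14 days (adjusted p = 0.0493), and the 14-day call was lost in 5 of the 9 settings and without any 1 library but mouse 6 or library A. The 1-day call was lost with DESeq2 (adjusted p = 0.0616) and without sham mouse 2 or 3 or mouse 4 or 5. Mgst3, a microsomal glutathione transferase, fell at 1 day by 0.89 (adjusted p = 0.00282), and Ggt5, which turns leukotriene C4 into D4, by 0.56 (adjusted p = 0.0323). Both were higher at 14 days than at 1 day, by 0.72 and 0.93. With total counts as the only scaling none of these 4 calls held (edgeR), and the 1-day values were -0.44 for Mgst3 (adjusted p = 0.0561) and -0.07 for Ggt5 (adjusted p = 0.812). The fall of Ggt5 was lost also without any 1 of the sham mice, mouse 4 or mouse 5. Cysltr1, a receptor of cysteinyl leukotrienes, rose from 2.88 ± 0.717 CPM in sham to 5.29 ± 0.201 CPM at 1 day (log2 0.90, SE 0.23, adjusted p = 0.00609) and stood at 5.02 ± 1.47 CPM at 14 days (log2 0.83, SE 0.23, adjusted p = 0.0335), the latter not without sham mouse 1 or 2, mouse 4, library B or library C. Alox12, a further lipoxygenase, fell at 1 day by 0.80 (adjusted p = 0.0446), a call that was lost without any 1 of the sham mice, mouse 4 or mouse 5, and with total counts as the only scaling (-0.32, adjusted p = 0.389).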

How the data were processed

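RNA from left ventricle of 9 mice (3 per group) was sequenced; TRIzol extraction, ribosomal RNA depletion and stranded total-RNA libraries are stated per the labels' protocols. The authors deposited 1 table of raw read counts per gene for all 9 libraries. STAR 2.7.1a and the builds GRCm38 and mm10 are named in the submitters' processing notes; for the counting program, its annotation, strand setting and treatment of multiply matching reads, the status is: not given in the sources used here. All columns of the table were used.

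Gene symbols and positions came from GENCODE M21, which named 36429 of the 38293 genes. Counts were fitted in edgeR 4.0.16 (R 4.3.3) with TMM scaling, filterByExpr and robust glmQLFit over all 9 libraries in 1 model of 3 groups, and tested with glmQLFTest and Benjamini-Hochberg adjustment over 14124 genes. The standard error is the log2 fold change divided by the root of the F statistic. Levels per kilobase divide by the union of exon lengths. The scripts were tested on simulated data. Any 2 libraries of a group differed by more than sampling noise (chi-square per degree of freedom 7.42 to 97.3). This cannot show that they came from different mice, because libraries made from 1 mouse can also differ by more than that. Each library was counted as 1 replicate because the sample labels name a different mouse for each. For libraries A, B and C, which share a mouse name in the table header, this rests on those labels alone. The p-values test differences between group means against the spread between libraries. Depth limits genes of few counts, above all Ltb4r1, Ptges and Ptgs2 in sham.

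All 10 members were reported in every comparison. Of the other pathway genes, the called genes were named, at most 3 a direction in each of 7 role groups, by highest mean CPM. Pla2g2d and the values of Cbr1 against sham were given outside this rule. Members and lists were chosen with earlier results of these data known. Pla2g4b and Muc16 were not analysed here. Alternatives were other scalings, filters and tests (DESeq2 1.42.0 and limma-voom, limma 3.58.1), a fit of the compared groups alone, and each library left out in turn. Figures were drawn with matplotlib 3.10.9.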

Additional observations from a re-analysis of the deposited data

Results flagged for a closer look

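For 5 members the effect of I/R against sham differed between the 2 time points, by the test of 14 days against 1 day, which is the test of that difference because both effects share the sham libraries (edgeR quasi-likelihood test, Benjamini-Hochberg adjusted). For Hpgd, the difference of the log2 fold changes (14 days minus 1 day) was 2.11 (adjusted p = 1.14e-04), from below sham to above it. The same difference was -1.41 for Ptgs2 (adjusted p = 0.00230), which was nearer to sham at 14 days. For Alox5ap it was -0.98 (adjusted p = 0.00447). Ptges gave 0.90 (adjusted p = 0.0197), and this call was lost without mouse 4, mouse 5 or library B. Ptger4 gave -0.52 (adjusted p = 0.0325), lost without mouse 4, mouse 5 or library A.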

How the results depend on the processing

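Over the 9 alternative settings, the members' log2 fold changes kept direction and call in 228 of 240 values; 8 calls were lost and 4 directions turned. With each library left out, 198 of 243 kept both, 32 calls were lost, 4 were gained and 9 directions turned. Total counts as the only scaling moved the median log2 fold change of all genes by 0.48 at 1 day, 0.09 at 14 days and -0.39 between the time points, and left 6860 genes that rose and 1057 that fell at 1 day, 720 and 112 at 14 days, and 1066 higher at 14 days than at 1 day. Members that fell were then 0 at 1 day and 0 at 14 days (edgeR; 1 and 1 at an unadjusted p under 0.05; 2 and 1 with TMM and with DESeq2 and limma-voom), and 1 was higher at 14 days than at 1 day; 6 other pathway genes fell at 1 day, 4 rose and 0 fell at 14 days (edgeR; 1 at an unadjusted p under 0.05; 2 with DESeq2 and limma-voom), and 6 were higher and 5 lower at 14 days than at 1 day. Limma-voom gave 3 members that rose at 14 days, a filter of 1 CPM in 3 libraries gave 1 member higher at 14 days than at 1 day (it removes Ptges), no filter gave 7 other pathway genes lower, and the 2 groups fitted alone gave 1369 genes that fell at 14 days. Leaving out 1 library gave 0 to 5 members that rose and 0 to 1 that fell at 14 days, and 1 to 3 higher at 14 days than at 1 day; 1 to 11 other pathway genes that rose and 0 to 3 that fell at 14 days, and 2 to 7 lower than at 1 day; and 314 to 1823 genes of all that rose and 164 to 1469 that fell at 14 days. Direction turned for member values that were not called: total counts gave 0.48 for Ptgs1 at 1 day, -0.30 for Ptgs1 between the time points and 0.20 for Ptgds at 1 day, and upper-quartile scaling gave 0.0009 for Alox5 between the time points. With 1 library left out Ptgs1 ranged from -0.30 to 0.0917 at 1 day and from -0.0158 to 0.36 between the time points, Ptgds from -0.76 to 0.0695 at 1 day and Alox5 from -0.15 to 0.066 between the time points. A called fall turned for Abcc4 at 1 day, from -0.31 to 0.16 with total counts. The cause was not tested. With 1 library left out, mean ratios are given for sham, 1 day and 14 days in turn. Ptgs2 to Ptgs1 was 0.0743 to 0.09775, 0.617 to 0.817 and 0.167 to 0.27. Ptgs2 to Hpgd was 0.0450 to 0.0527, 0.805 to 0.997 and 0.0639 to 0.0907. Alox5ap to Alox5 was 0.633 to 0.695, 3.71 to 5.245 and 1.87 to 2.77. Ptges to Ptgis was 0.0868 to 0.132, 0.0461 to 0.0735 and 0.0617 to 0.0862. No paired analysis was possible because the mouse numbers differ between all groups and the 14-day columns share 1 name. With 3 libraries a group, and few counts for Ltb4r1, Ptges and Ptger2, smaller changes were not detectable at this depth.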
